A study of Mus musculus with 5 samples.

Results

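The 4 antioxidant genes Hmox1, Prdx1, Slc7a11 and Cat were taken by name from the 1489 genes of the deposited expression table, and their levels were described over all 5 RNA-seq libraries. The cells were RAW264.7, a mouse macrophage line, and the labels give the same line and no genetic change for every group. A single library came from cells treated with LPS and compound 13, 2 libraries from cells treated with LPS alone (the LPS model) and 2 from control cells treated with PBS. LPS is a component of the Gram-negative cell wall that macrophages sense through TLR4, and compound 13 is 5-chloro-6-hydroxymellein, a chlorinated metabolite of a mangrove fungus. The label of its library reads only as LPS with anti-inflammatory compounds, so the identity of the compound rests on the methods of the study. In the cell assays of that study LPS was used at 0.1 μg/ml and compounds at 10 μM, and RNA was collected after 24 h of co-treatment. For the sequenced cells these doses are not repeated. The sources do not say that replicate libraries came from separate cultures, and p-values here reflect the variation among the libraries alone, possibly a technical one.

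The table holds log2-transformed FPKM (fragments per kilobase of exon, scaled by depth), printed here as FPKM, which allows levels to be compared between genes per length. Since low values step by the worth of 1 read, depths could be recovered as 17145533 reads with compound 13, 16593286 and 16173065 in the LPS model and 16566653 and 17104175 in the control. The listed genes held 16.83% to 17.15% of the reads in the 3 libraries with LPS and 8.0% and 8.21% in the control libraries. The sources used here do not state the choice of the 1489 genes, which nearly all differed between LPS model and control, so a call of a listed gene in that comparison is common. Of the macrophage markers looked up, 4 of 16 were in the table (Itgam, Fcgr1, Fcgr3 and Cd14), with a summed level of 1462 FPKM with compound 13, 1430 and 1402 FPKM in the LPS model and 722 and 771 FPKM in the control. Most of this sum was Cd14, at 1396 FPKM with compound 13, 1360 and 1331 FPKM in the LPS model and 685 and 732 FPKM in the control. Itgam and Fcgr3 were also higher with LPS. Fcgr1 was not, with 10.02 FPKM with compound 13, 13.45 and 14.14 FPKM in the LPS model and 14.41 and 16.55 FPKM in the control. Of the epithelial markers, 3 of 12 were in the table (Krt8, Krt18 and Krt19). Their summed level was 0 FPKM with compound 13, 19.6 and 12.5 FPKM in the LPS model libraries and 0 FPKM in the control libraries. The listed fibroblast and endothelial markers (4 of 15) summed to 0.316 FPKM with compound 13, 0.986 and 0.816 FPKM in the LPS model libraries and 0.074 and 0.028 FPKM in the control libraries. Among them the collagen gene Col3a1 had 68 and 57 reads in the LPS model libraries and none in the others, where the keratins were also at 0. The markers of T, B, dendritic and granulocyte cells (2 of 18) summed to 0.242 FPKM with compound 13, 0.267 and 0.327 FPKM in the LPS model and 1.31 and 1.55 FPKM in the control.

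Activated macrophages make superoxide and nitric oxide, and they raise enzymes and transporters that limit the damage these do to the cell itself. Hmox1, heme oxygenase 1, breaks heme down to biliverdin, carbon monoxide and iron. Prdx1, peroxiredoxin 1, reduces hydrogen peroxide with electrons from thioredoxin, and Cat, catalase, splits hydrogen peroxide into water and oxygen, mostly in peroxisomes. Slc7a11, also called xCT, is the transport subunit of the exchanger that takes up cystine against glutamate and so feeds glutathione synthesis. Hmox1, Prdx1 and Slc7a11 are known targets of the transcription factor NRF2, which KEAP1 holds in check and which binds the antioxidant response element. Slc7a11 is also a known target of ATF4, the factor of the amino acid and endoplasmic reticulum stress response.

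The RefSeq promoter table (build GRCm38.p6) held 3 of the 4 genes, and the 250 bases before each of these starts are shown because between them they carry matches to motifs of NRF2, AP-1, ATF4 and NF-κB, factors of stress and LPS signalling. Capitals mark every match to the antioxidant response element core TGACNNNGC, the AP-1 motif TGACTCA, the ATF4 composite element TGATGNAAN or the NF-κB motif, searched on both strands. The Prdx1 window lies at chr4:116685349-116685598 on the plus strand, that of Slc7a11 at chr3:50443614-50443863 on the minus strand and that of Cat at chr2:103485154-103485403 on the minus strand. These RefSeq starts differ from the gene spans given below, and the last bases of the Prdx1 and Cat windows fall inside those spans. Each is written 5′ to 3′ along its gene.
Prdx1: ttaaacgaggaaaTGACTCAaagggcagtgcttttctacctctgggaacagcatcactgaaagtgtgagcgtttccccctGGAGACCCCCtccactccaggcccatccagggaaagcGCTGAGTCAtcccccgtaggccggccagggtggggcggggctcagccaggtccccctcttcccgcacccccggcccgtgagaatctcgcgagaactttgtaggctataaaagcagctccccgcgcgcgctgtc
Slc7a11: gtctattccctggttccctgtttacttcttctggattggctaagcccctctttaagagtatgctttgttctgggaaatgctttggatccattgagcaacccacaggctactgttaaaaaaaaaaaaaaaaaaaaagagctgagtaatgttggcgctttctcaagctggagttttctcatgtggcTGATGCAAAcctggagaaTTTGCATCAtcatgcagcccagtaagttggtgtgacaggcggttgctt
Cat: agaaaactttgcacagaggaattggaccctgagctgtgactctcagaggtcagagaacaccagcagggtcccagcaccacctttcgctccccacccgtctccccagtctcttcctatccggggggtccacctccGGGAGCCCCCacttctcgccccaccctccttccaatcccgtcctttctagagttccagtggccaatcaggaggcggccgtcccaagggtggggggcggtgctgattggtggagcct

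The Prdx1 promoter held an antioxidant response element core 133 to 125 bases before the start, on the minus strand, read there as TGACTCAGC. An AP-1 motif at 131 to 125 bases overlapped it on the same strand, and another AP-1 motif stood on the plus strand at 237 to 231 bases. An NF-κB motif was found on the minus strand at 170 to 161 bases. In Slc7a11 the ATF4 composite element occurred on the plus strand at 66 to 58 bases and on the minus strand at 48 to 40 bases, both with the letters TGATGCAAA. The capitals in Cat, 116 to 107 bases before the start, match the NF-κB motif on both strands. Neither the Slc7a11 nor the Cat promoter held the antioxidant response element core. Over the 32851 promoters of the table, in windows of 300 bases that also cover the 50 bases after the start, 12.4% held the antioxidant response element core, 5.2% the AP-1 motif, 3.95% the ATF4 composite element and 8.46% the NF-κB motif. A match is a description of the letters and does not show that a factor binds.

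In every library Prdx1 had the highest level of the 4 genes, followed by Hmox1, Cat and Slc7a11, and no neighbours in this order came within the spread of their replicates. All 4 genes were higher in the LPS model than in control cells, by 2.68 times for Cat up to 8.08 times for Slc7a11 in reads per depth. With compound 13 all 4 stayed near the level of the LPS model, between 0.953 times (Hmox1) and 1.11 times (Prdx1) of it. The plot of FPKM by library shows this for each gene.

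**Figure D1:**
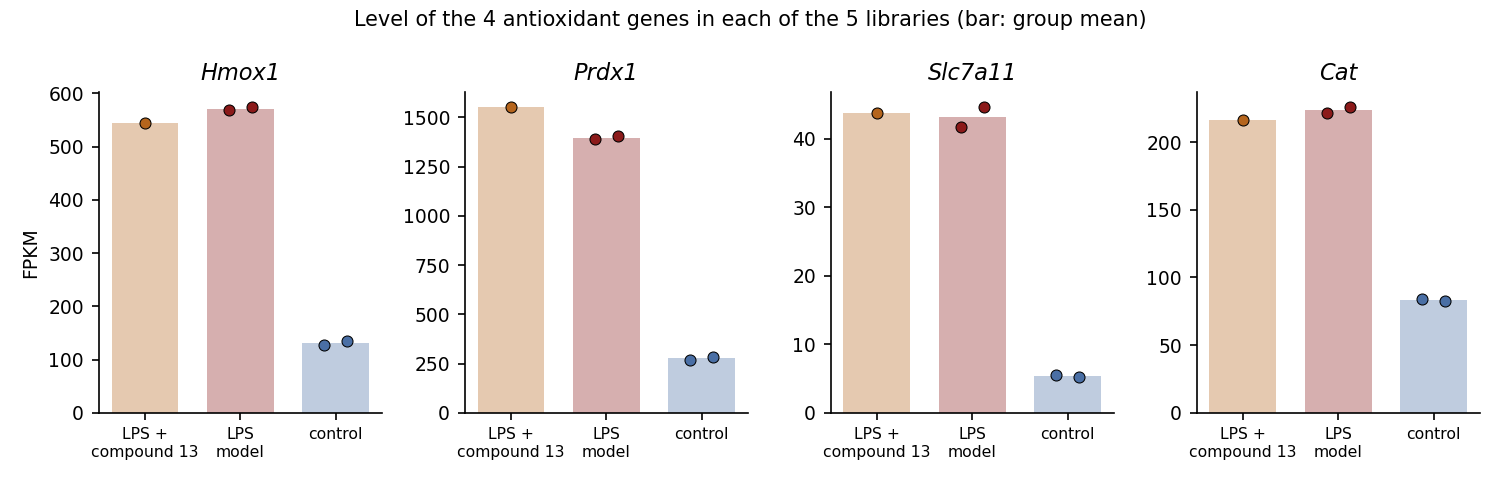
Level in FPKM (vertical axis, from 0, a separate scale per gene) of Hmox1, Prdx1, Slc7a11 and Cat in the LPS + compound 13, LPS model and control libraries; points are libraries and bars are group means. In each panel the compound 13 library stands beside the LPS model libraries and far above the control libraries.

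Hmox1 (ENSMUSG00000005413, chr8:75093621-75100589, plus strand, GRCm38) had 544 FPKM with compound 13, 569 and 574 FPKM in the LPS model and 127 and 135 FPKM in the control. In reads these were 16338 with compound 13, 16521 and 16255 in the LPS model and 3679 and 4031 in the control. Replicates of the LPS model were 0.946% of the lower one apart and those of the control 6.12%, and the LPS model and control libraries did not overlap. The LPS model averaged 571 ± 3.81 FPKM and the control 131 ± 5.49 FPKM (SD, n = 2 each). Hmox1 was among the most abundant listed genes, at rank 13 of 1489 by FPKM with compound 13, 12 in each LPS model library and 23 and 22 in the control.

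Prdx1 (ENSMUSG00000028691, chr4:116685544-116700822, plus strand), whose promoter above holds the antioxidant response element core, had 1551 FPKM with compound 13, 1388 and 1407 FPKM in the LPS model and 270 and 285 FPKM in the control. The reads were 80940 with compound 13, 70095 and 69242 in the LPS model and 13603 and 14831 in the control. Prdx1 alone took 0.472% of all reads with compound 13, 0.422% and 0.428% in the LPS model and 0.0821% and 0.0867% in the control. The LPS model averaged 1398 ± 13.2 FPKM and the control 277 ± 10.7 FPKM (SD, n = 2 each), and these libraries did not overlap. The compound 13 library lay above both LPS model libraries, and among the 1489 genes Prdx1 ranked 4 there, 5 in each LPS model library and 8 in each control library. Of the 1053 genes tested below, 18.1% lay between the LPS model libraries with compound 13, and the share above both was not counted.

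Slc7a11 (ENSMUSG00000027737, chr3:49892526-50443614, minus strand), the gene with the pair of ATF4 composite elements, had 43.7 FPKM with compound 13, 41.7 and 44.6 FPKM in the LPS model and 5.48 and 5.19 FPKM in the control. These came from 10443 reads with compound 13, 9629 and 10034 in the LPS model and 1264 and 1237 in the control. The LPS model averaged 43.1 ± 2.04 FPKM and the control 5.34 ± 0.202 FPKM (SD, n = 2 each). The compound 13 library fell between the LPS model libraries, which differed by 6.91% of the lower one, while the LPS model stood clear of the control. The exon length used for this gene was 13922 bases, long beside 1751 for Hmox1, 3043 for Prdx1 and 2613 for Cat, and a shorter transcript in these cells would give a higher FPKM from the same reads. The processed pseudogenes Gm2345, Gm37692 and Gm37826, the antisense gene Gm37854 and the uncurated transcript Gm37498 overlap the span of Slc7a11, and whether counting used the strand is not given in the sources used here. Its reads may thus include some from these.

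Cat (ENSMUSG00000027187, chr2:103453849-103485160, minus strand) had 216 FPKM with compound 13, 221 and 226 FPKM in the LPS model and 84.0 and 82.8 FPKM in the control. It was counted by 9684 reads with compound 13, 9593 and 9537 in the LPS model and 3638 and 3701 in the control. The LPS model averaged 224 ± 3.13 FPKM and the control 83.4 ± 0.871 FPKM (SD, n = 2 each), without overlap. Unlike the other members, Cat kept its place among the 1489 genes, at rank 42 with compound 13, 41 in each LPS model library and 39 and 40 in the control.

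To test these differences, log2(FPKM + 1) was fitted with limma over 5 libraries in 1 model, for the 1053 genes with an FPKM of at least 1 either in 2 libraries or with compound 13. The 4 genes all passed this filter. Calls required a Benjamini-Hochberg adjusted p below 0.05, and the lone compound 13 library was assumed to vary like the others. LPS model against control asks what LPS does to these genes. All 4 were called higher, with log2 differences of 2.12 ± 0.04 for Hmox1, 2.33 ± 0.04 for Prdx1, 2.80 ± 0.06 for Slc7a11 and 1.41 ± 0.03 for Cat (SE) and limma adjusted p of 1.75e-06, 1.4e-06, 1.85e-06 and 2.39e-06. Of all genes tested 72.7% were called higher and 23.4% lower, and in 73.7% both LPS model libraries lay above both control libraries, so the 4 calls are what most listed genes gave. From bulk RNA, fewer cells of a type and less RNA per cell cannot be told apart.

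The size of the difference separated the 4 genes more than the call did. The median of all genes tested was 0.96, and Slc7a11 exceeded it by 1.84, Prdx1 by 1.37, Hmox1 by 1.16 and Cat by 0.45. Counted from the largest rise downward on this scale, with falls last, Slc7a11 ranked 49 of 1053, Prdx1 85, Hmox1 105 and Cat 287. The reads per depth were 8.08 times the control for Slc7a11 (95% Clopper-Pearson interval of the read split, 7.75 to 8.43), 5.04 times for Prdx1 (4.97 to 5.10), 4.37 times for Hmox1 (4.26 to 4.48) and 2.68 times for Cat (2.61 to 2.75). Such intervals cover counting error only.

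With rescalings that bring the listed genes toward no change, the median of all genes was 0.04 (median of ratios) and 0.16 (quantile normalization) in place of 0.96, and the higher and lower calls were 422 and 389 and then 463 and 346 in place of 766 and 246. Hmox1 then stood at 0.96 and 0.63, Prdx1 at 1.16 and 0.92 and Slc7a11 at 1.73 and 1.94, each still called higher. Cat stood at 0.25 with the median of ratios but at −0.07 under quantile normalization, where it was called lower (limma adjusted p = 0.0287, over its alternatives 1.93e-09 to 0.0287). Its direction thus depends on the scaling, and quantile normalization gives the listed genes of every library the same distribution. Of all reads, Cat took 0.0578% and 0.059% in the LPS model and 0.022% and 0.0216% in the control. The order Slc7a11, Prdx1, Hmox1, Cat was the same under both.

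LPS + compound 13 against control gave log2 differences of 2.05 ± 0.05 for Hmox1, 2.48 ± 0.05 for Prdx1, 2.82 ± 0.07 for Slc7a11 and 1.36 ± 0.04 for Cat (SE), with limma adjusted p of 5.94e-06, 3.65e-06, 6.03e-06 and 8.48e-06. All 4 genes were called higher, where 68.1% of all genes tested were called higher and 23.9% lower. In this library, where the 3 listed epithelial markers were at 0, Hmox1 was in reads per depth at 4.16 times the control, Prdx1 at 5.59 times, Slc7a11 at 8.20 times and Cat at 2.59 times. This comparison shares its control libraries with the preceding one. As there, Cat was the gene whose direction turned under quantile normalization (−0.12), while the higher and lower calls were 362 and 354 under the median of ratios and 420 and 335 under quantile normalization in place of 717 and 252.

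**Figure D2:**
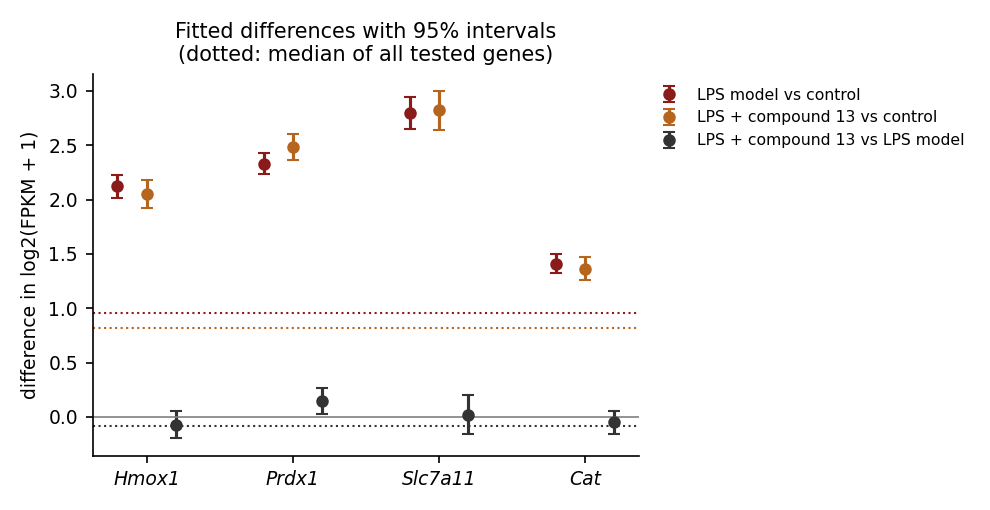
Fitted log2(FPKM + 1) differences (vertical axis) of the 4 genes with 95% intervals for LPS model against control, LPS + compound 13 against control and LPS + compound 13 against LPS model; dotted lines give the median of all 1053 genes in each comparison. Slc7a11 has the largest differences from the control and Cat the smallest, and the differences between compound 13 and the LPS model lie near 0.

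LPS + compound 13 against LPS model asks whether the compound changes what LPS did. None of the 4 genes was called with limma. At an unadjusted p under 0.05 there was 1, Prdx1, and with limma-voom on the recovered reads also 1, Prdx1. Of all genes tested 3.42% were higher and 21.7% lower at that unadjusted p, and 1.14% higher and 14.7% lower with limma-voom. At the adjusted p of the main test 0.38% were called higher and 7.22% lower, counts that rest on single libraries: 80 genes in all became 17 and 22 without either LPS model library, and 139 and 137 without either control library. The median of all genes was −0.08, and rescaling moved it to 0.02 (median of ratios) and 0.03 (quantile normalization).

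Prdx1 was the member with the clearest difference, at 0.15 ± 0.05 on the log2 scale (SE, 95% interval 0.03 to 0.27, limma adjusted p = 0.128). Its reads per depth with compound 13 were 1.11 times the LPS model (1.10 to 1.12, counting error only), an excess larger than the 1.35% gap between the LPS model replicates and the 5.6% gap between the control replicates. The call depended on the setting. Prdx1 was called higher under quantile normalization, when only the compared groups were fitted, with limma-voom and when either control library was left out, and not in the other 11 of 16 alternatives (adjusted p from 0.00179 to 0.455 over all of them). Its estimate was above 0 in all of these, between 0.08 and 0.28. In the main fit Prdx1 ranked 84 of 1053 from the largest rise downward.

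For the other members the intervals bound the difference. Hmox1 with compound 13 lay below both LPS model libraries, at −0.07 ± 0.05 (SE, limma adjusted p = 0.423), with an interval of 0.873 to 1.04 times the LPS model. Cat also lay below both, at −0.05 ± 0.04 (adjusted p = 0.506, 0.900 to 1.04 times). Both of these estimates turned positive with the median of ratios, to 0.06 for Hmox1 and 0.08 for Cat, still without a call. On the deposited scaling both lay near the median of all genes tested, −0.08, with Hmox1 0.014 and Cat 0.036 above it. The share of all genes below both LPS model libraries was not counted. Slc7a11 lay between the LPS model libraries, as did 18.1% of all genes tested, at 0.02 ± 0.07 (adjusted p = 0.879, 0.897 to 1.15 times). Differences within these intervals remain possible, and the smallest difference that 1 library could detect was not computed. The lack of a call does not show that the compound leaves the genes unchanged.

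Around the 4 genes, 7 lists of related genes were looked up, 249 genes in all, of which 58 were in the table. Besides the 4 members 48 of them were tested. For LPS model against control 41 were called higher and 5 lower, 2 were not called, and the median was 1.12 beside 0.96 for all genes tested. Some of those called higher, among them Gpx8 and Gstm2, reached the filter only in libraries with LPS. Their calls are thus no separate support for a rise. With the median of ratios the counts were 25 higher and 17 lower, and under quantile normalization 25 and 12. The plot of list genes under LPS shows the members among the larger differences of their lists on this scale, Cat least so.

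**Figure D3:**
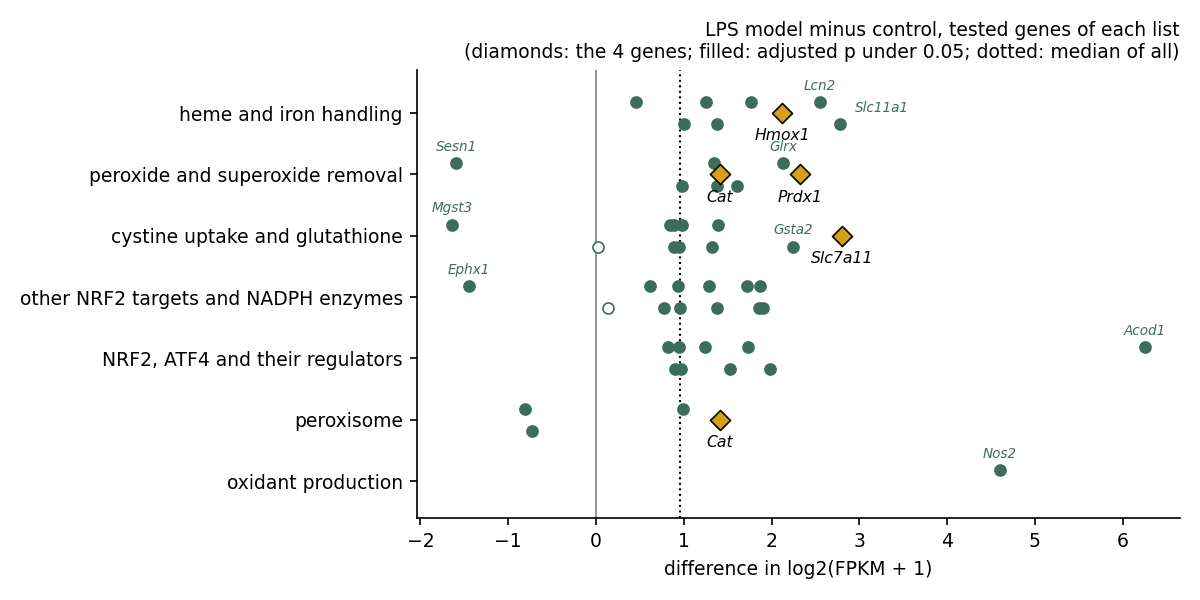
Difference in log2(FPKM + 1), LPS model minus control (horizontal axis), for the tested genes of each of 7 lists; diamonds are Hmox1, Prdx1, Slc7a11 and Cat (Cat is in 2 lists), filled symbols were called and open ones not, and the dotted line is the median of all tested genes. Most points lie above 0 and around the median, with Acod1 and Nos2 far to the right and Sesn1, Mgst3 and Ephx1 to the left.

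Of the heme and iron genes, 10 of 31 were listed, and all 7 tested besides Hmox1 rose with LPS (median 1.37; 5 higher and 2 lower with the median of ratios, 5 and 1 under quantile normalization). Slc11a1, a metal transporter of the phagosome, had 201 FPKM with compound 13, 189 and 191 FPKM in the LPS model and 27.2 and 26.5 FPKM in the control, 2.78 higher with LPS on the log2 scale. Blvrb, which acts on the biliverdin side of heme breakdown, had 45.8 FPKM with compound 13, 42.6 and 43.3 FPKM in the LPS model and 11.2 and 12.6 FPKM in the control. The iron exporter ferroportin (Slc40a1) was low but higher with LPS, at 5.07 FPKM with compound 13, 4.97 and 4.86 FPKM in the LPS model and 1.27 and 1.29 FPKM in the control. Lcn2, which binds bacterial iron carriers, had 4.20 FPKM with compound 13, 4.69 and 5.07 FPKM in the LPS model and no read in the control. Its level in the LPS model was at least 144-fold higher, against a floor of 3 reads over the control group.

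Of the genes that remove peroxide and superoxide, 8 of 32 were listed, and of the 6 tested besides Prdx1 and Cat 5 rose and 1 fell. The median was 1.36, and the counts were 4 and 2 with the median of ratios and 4 and 1 under quantile normalization. The 5 include Gpx8, which passed the filter only through the LPS model libraries, at 1.90 and 1.22 FPKM, and was at 0 elsewhere. Glrx, a glutaredoxin that reduces protein disulfides with glutathione, had 55.3 FPKM with compound 13, 59.6 and 59.2 FPKM in the LPS model and 12.1 and 13.6 FPKM in the control. Srxn1, sulfiredoxin, which restores overoxidised peroxiredoxins, had 84.2 FPKM with compound 13, 79.8 and 80.5 FPKM in the LPS model and 25.2 and 26.0 FPKM in the control. The gene that fell was Sesn1, a stress-induced sestrin, with 3.56 FPKM with compound 13, 3.32 and 3.45 FPKM in the LPS model and 11.8 and 12.6 FPKM in the control (log2 difference −1.59, limma adjusted p = 1.04e-05). Sesn1 thus moved opposite to Prdx1 and, on the deposited scaling, to Cat.

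Of the cystine and glutathione genes, 13 of 43 were listed, and of the 10 tested besides Slc7a11 8 rose, 1 fell and 1 was not called. The median was 0.91, with 3 higher and 5 lower under the median of ratios and 5 and 3 under quantile normalization. The 8 include Gstm2, which passed the filter only through the LPS model libraries, and Chac1 and Gsta2, which passed only through libraries with LPS. Chac1, which degrades glutathione and is a known ATF4 target, had 2.28 FPKM with compound 13, 3.57 and 3.44 FPKM in the LPS model and 0.811 and 0.643 FPKM in the control. The glutathione transferase Gsta2 had 5.25 FPKM with compound 13, 4.20 and 4.73 FPKM in the LPS model and 0.154 and 0.149 FPKM in the control, the last from 3 reads each. Mgst3, a microsomal member of the transferases, fell to 17.5 and 15.8 FPKM in the LPS model, against 52.7 and 55.4 FPKM in the control, and had 16.0 FPKM with compound 13. On the log2(FPKM + 1) scale, which understates the change of low genes, Slc7a11 differed by 2.80 and Gsta2 by 2.24, while in reads per depth Gsta2 was at 29.5 times the control (13.3 to 81.4) and Slc7a11 at 8.08 times.

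Of the other NRF2 targets and NADPH enzymes, 12 of 35 were listed, and all of them were tested; 10 rose, 1 fell and 1 was not called (median 1.13; 7 and 2 with the median of ratios, 5 and 4 under quantile normalization). Nqo1, a quinone reductase often used as a readout of NRF2, was low, at 2.22 FPKM with compound 13, 4.23 and 3.66 FPKM in the LPS model and 0.505 and 0.226 FPKM in the control. Sqstm1, the autophagy receptor p62, which binds KEAP1, had 549 FPKM with compound 13, 525 and 529 FPKM in the LPS model and 140 and 148 FPKM in the control. The aldo-keto reductase Akr1b8 was near these proportions, at 331 FPKM with compound 13, 333 and 328 FPKM in the LPS model and 90.0 and 85.0 FPKM in the control. These 3 genes were thus all higher with LPS, at levels far apart. Trib3, a pseudokinase known as an ATF4 target, had 4.78 FPKM with compound 13, 6.18 and 5.53 FPKM in the LPS model and 1.17 and 0.991 FPKM in the control. The epoxide hydrolase Ephx1 went the other way, with 0.778 FPKM with compound 13, 1.02 and 1.21 FPKM in the LPS model and 5.76 and 3.93 FPKM in the control. In reads per depth Nqo1 was at 10.9 times the control (6.78 to 18.4), from 19 reads over both control libraries, beside 4.37 times for Hmox1.

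All 9 of the regulators tested (9 of 34 listed) rose with LPS, with a median of 1.24, and the counts were 4 higher and 4 lower under the median of ratios and 4 and 1 under quantile normalization. Acod1, which makes itaconate, a metabolite known to act on KEAP1, had the largest difference, 6.26 on the log2 scale. Its level was 372 FPKM with compound 13, 415 and 418 FPKM in the LPS model and 4.67 and 4.26 FPKM in the control. Maff, a small Maf partner of NRF2, had 5.34 FPKM with compound 13, 6.26 and 6.04 FPKM in the LPS model and 1.34 and 0.993 FPKM in the control. Of the AP-1 genes, Fosl1 had 42.4 FPKM with compound 13, 45.5 and 46.7 FPKM in the LPS model and 11.1 and 10.8 FPKM in the control. LPS model and control libraries did not overlap for any of the 9 regulators, nor for the 4 members. In 73.7% of all genes tested both LPS model libraries lay above both control libraries. Junb had 149 FPKM with compound 13, 152 FPKM in each LPS model library and 58.1 and 70.3 FPKM in the control, but its log2 difference of 1.24 turned to −0.24 under quantile normalization. Atf5, a relative of ATF4, had 14.3 FPKM with compound 13, 14.5 and 13.9 FPKM in the LPS model and 4.15 and 4.43 FPKM in the control.

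Catalase sits in peroxisomes, and of the peroxisome list 5 of 58 were in the table. Besides Cat 3 were tested, of which 1 rose and 2 fell, with a median of −0.73 and the same counts under both rescalings. The genes that fell were Acaa1b, a thiolase of fatty acid breakdown, with 2.26 FPKM with compound 13, 1.90 and 1.54 FPKM in the LPS model and 2.89 and 4.80 FPKM in the control, and the membrane protein gene Pxmp4, with 1.22 FPKM with compound 13, 0.755 and 0.953 FPKM in the LPS model and 2.29 and 1.88 FPKM in the control. Acaa1b lost its call when either LPS model library was left out (adjusted p = 0.0774 and 0.126). Hao1, a hydroxy acid oxidase that yields hydrogen peroxide, rose to 2.03 and 2.06 FPKM in the LPS model, against 0.502 and 0.563 FPKM in the control, with 1.84 FPKM with compound 13. Cat, at more than 80 FPKM in every library, was far more abundant than these.

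On the producing side, 2 of 19 genes for oxidant production were listed and 1 was tested. This gene, Nos2, the inducible nitric oxide synthase, rose with LPS and had 21.4 FPKM with compound 13, 24.5 and 22.7 FPKM in the LPS model and 0 and 0.0266 FPKM in the control, the last from 2 reads.

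For LPS + compound 13 against LPS model, 0 of the 48 list genes were called higher with limma and 3 lower, with a median of −0.04 beside −0.08 for all genes. At an unadjusted p under 0.05 these counts were 5 and 9, with limma-voom 3 and 5, with the median of ratios 0 and 0, and under quantile normalization 1 and 0. For LPS + compound 13 against control 40 were higher and 4 lower, with a median of 1.10 beside 0.82 for all genes (21 and 11 with the median of ratios, 25 and 11 under quantile normalization).

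The 3 genes called lower were Gpx8, Gstm2 and Cd36. Gpx8, a glutathione peroxidase family member of the endoplasmic reticulum, was listed at 0 with compound 13 and in both control libraries, against 1.90 and 1.22 FPKM in the LPS model (limma adjusted p = 0.0253, over its alternatives 0.00164 to 0.0846). Gstm2, a glutathione transferase, had 0.139 FPKM with compound 13, 1.97 and 1.25 FPKM in the LPS model and 0.0361 and 0.0349 FPKM in the control (adjusted p = 0.0343, 0.00729 to 0.109). Both were thus found mainly in the LPS model libraries, the same in which the epithelial keratins summed to 19.6 and 12.5 FPKM and were at 0 elsewhere, as was Col3a1, and the part of that in these calls was not tested. Both genes passed the filter only through the LPS model libraries, the group they were compared with. Their p-values are thus no separate support for an effect of the compound. Both calls were lost under each rescaling. Cd36, a scavenger receptor for oxidised lipids, had 181 FPKM with compound 13, 210 and 219 FPKM in the LPS model and 81.4 and 81.5 FPKM in the control (log2 difference −0.24, adjusted p = 0.0466, 0.00705 to 0.251), a call kept in 5 of 14 alternatives, and it was lost without either LPS model library. Its LPS difference of 1.38 turned to −0.10 under quantile normalization.

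**Figure D4:**
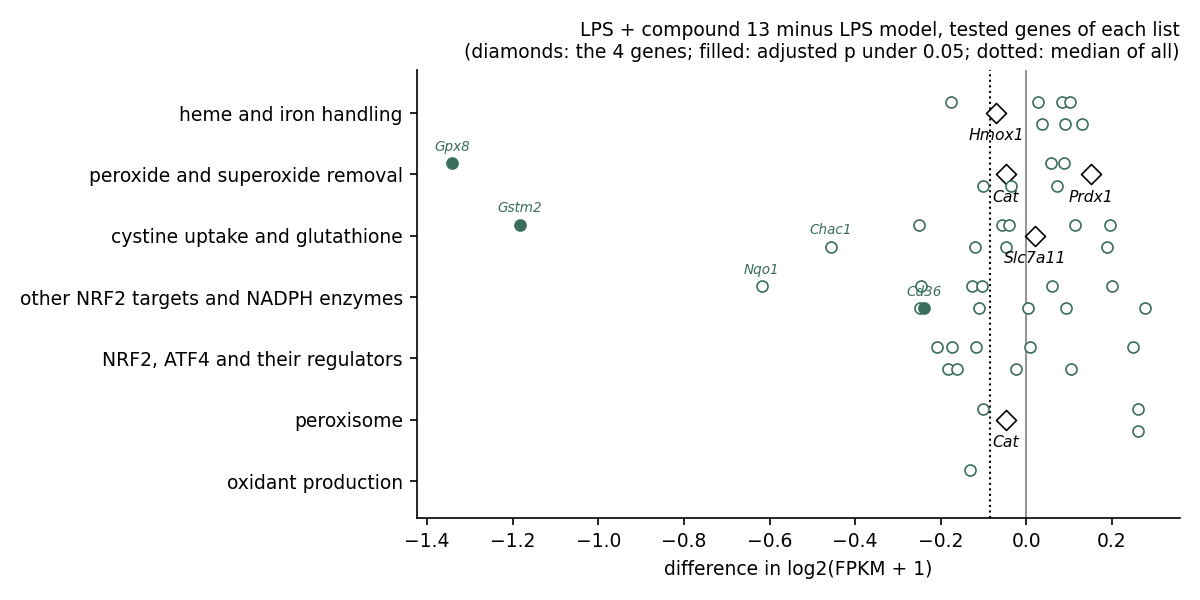
Difference in log2(FPKM + 1), LPS + compound 13 minus LPS model (horizontal axis), for the tested genes of the same 7 lists; diamonds are the 4 genes, filled symbols were called, and the dotted line is the median of all tested genes. Apart from Gpx8, Gstm2, Nqo1 and Chac1 on the left, the points lie close to 0, and the diamonds are all open.

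Nqo1 and Chac1 had the next largest differences, −0.62 (limma adjusted p = 0.0828) and −0.46 (adjusted p = 0.0716), and were not called. The compound 13 library had 59 reads of Nqo1, against 109 and 92 in the LPS model, and 64 reads of Chac1, against 97 and 91, so these differences rest on few reads. Both genes lay below both LPS model libraries, in a comparison where the median of all genes tested was −0.08. The share of all genes below both was not counted. Other list genes went the other way. Those counted above as higher at an unadjusted p under 0.05 were Mt1 (0.28), Atf3 (0.25), Ptgr1 (0.20), Slc3a2 (0.19) and Fth1 (0.13). Whether these genes differ from the members in their response was not tested.

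The genes nearest in pattern were found among the 1053 by the Euclidean distance over the 5 libraries of log2(FPKM + 1), each gene centred on its own mean. Since the libraries form 3 groups, this mainly ranks genes by the size of their LPS difference. Hmox1 was nearest to Glrx (distance 0.0546), Tmem171 (0.0752) and Igf2bp2 (0.0936). Prdx1 was nearest to Egr1 (0.0935), an immediate early transcription factor with 24.9 FPKM with compound 13, 22.1 and 23.0 FPKM in the LPS model and 3.84 and 3.72 FPKM in the control, and to Gsta2 (0.134) and Hilpda (0.157). All 3 of these also had their highest level in the compound 13 library. Slc7a11 was nearest to Slc11a1 (0.0808), Klra2 (0.159) and 4933438A12Rik (0.178), and Cat to Stk40 (0.0394), Bcl2l1 (0.0524) and C3ar1 (0.0612). Among the members Hmox1 and Prdx1 were closest (0.358) and Slc7a11 and Cat farthest apart (1.55). With Pearson correlation in place of the distance, none of these neighbours was kept for Hmox1, Prdx1 and Slc7a11 and 1 of 3 for Cat.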

How the data were processed

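RNA-seq of RAW264.7 cells was read from 1 table, grouped by its labels. The authors deposited log2 FPKM for 1489 genes, made per the submitters' processing notes with Trimmomatic 0.32, HISAT2 2.1.0, SAMtools 1.4, DESeq2 and mm10, without settings; neither the counter nor the annotation release is given in the sources used here. An exact 0 (562 values) was read as no read. Annotation terms of the table were not used.

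Depths were recovered from FPKM and exon lengths of GENCODE mouse release 21 (1487 identifiers matched, 1333 with the same coordinates); values under 30 reads came within 0.1 of a whole number in 97.3% to 99.4% of cases, and in up to 48.8% at any other depth tried. The variance between replicates averaged 2.35 (LPS model) and 3.83 (control) times counting error. The fits were made in limma 3.58.1 under R 4.3.3, and the rest in Python 3.11.15 (pandas 2.3.3, scipy 1.17.1). The main test (limma, empirical Bayes with a trend, pseudocount of 1, FPKM of at least 1 in 2 libraries or in the compound 13 library) has 2 residual and 2.97 prior degrees of freedom. It was also run on simulated data, which varied less between replicates than these libraries and held fewer changed genes. That run is thus no support for the calls here. Members and gene lists were chosen with earlier results of these data known. Named are the members, up to 5 genes per list with the largest LPS difference, list genes called for compound 13 against LPS model, and 3 nearest genes per member. Nqo1, Chac1 and the list genes higher at an unadjusted p under 0.05 are singled out for compound 13 after their values were seen. Alternatives were set at the start.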

Additional observations from a re-analysis of the deposited data

How the results depend on the processing

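The numbers of genes called held within 1.5 times for LPS model against control (main 1012) and LPS + compound 13 against control (main 969), except with a filter at an FPKM of 10 (484 and 483, from 494 genes tested) and a minimum log2 fold change of 1 in either direction (622 and 528). For LPS + compound 13 against LPS model (main 80) the count was 35 with a pseudocount of 0.1, 15 with the filter at 10, 2 with the median of ratios, 8 after quantile normalization, 141 in a fit of only the groups compared, 129 at an unadjusted p under 0.01, 20 with the minimum fold change and 166 with limma-voom, and 17 to 139 when a replicate was left out; the cause was not tested. Prdx1 passed the threshold for this comparison after quantile normalization (0.0802), in a fit of only the groups compared (0.15), with limma-voom (0.15) and without either control replicate (0.15 each), and stood at 0.141 to 0.160 without either LPS model replicate. After quantile normalization Cat turned to −0.0698 for LPS model against control and −0.121 for LPS + compound 13 against control. Of the list genes, LPS model against control turned after quantile normalization for Cd36 (−0.10) and Junb (−0.24), and LPS + compound 13 against control for Cd36 (−0.27) and Junb (−0.19). Every other alternative kept the direction and call of the 4 genes against the control. Alternatives for a table of counts were not run, since the table holds log2 FPKM.

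With the replicate number as a block the count for LPS + compound 13 against LPS model was 52, and 1012 and 970 genes were called against the control. The numbers share no stated origin, and the deviations of same-numbered libraries had a correlation of −0.02 over 1053 genes, so they were not taken as pairs. The lone compound 13 library limits the tests of the compound, while each member had at least 1237 reads in every library.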
